A study of Mus musculus with 76 samples.

Results

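Apolipoproteins are the protein part of the particles that carry fat and cholesterol in blood. Hepatocytes load triglyceride onto Apob with the help of Mttp, the microsomal transfer protein, and export the result as very-low-density lipoprotein, whereas Apoa1 and Apoa2 are the main proteins of high-density lipoprotein. Other proteins such as Apoa5, Apoc1 and Apoc3 move between particles and set how fast lipoprotein lipase empties them, and Apoe is the ligand by which liver receptors clear the remnants. The genes described here are Apob and Mttp (particle assembly), Apoa1 and Apoa2 (high-density lipoprotein), Apoa4, Apoa5, Apoc1 and Apoc3 (exchangeable proteins), Apoe (receptor ligand) and Apoh (a phospholipid-binding plasma protein). They were taken by symbol, 10 of 10 from the liver table of 16775 rows and 8 of 10 from the visceral fat table of 18964 rows, which lists neither Apoa5 nor Apoh.

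The mice were females fed ad libitum. Fnip2C/C mice carried a T-to-C change knocked into both copies of Fnip2, a partner of folliculin in the mTORC1 pathway, and with it a nearby G-to-C change that removes the PAM of the guide used for editing, so that the effects of the 2 changes cannot be told apart. Fnip2T/T mice carried the ancestral allele, and the allele was made in C57BL/6 embryos. Liver was sequenced from 5 Fnip2C/C and 5 Fnip2T/T mice and visceral white adipose tissue (WAT) from 4 and 5, with 6 mice giving both tissues, by QuantSeq, which reads the 3' end of each messenger RNA. Ages were not given in the labels.

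Each liver library held between 5583041 and 7523200 gene reads, and each WAT library between 4180209 and 6277644. Hepatocyte markers were high in all 10 livers, with Alb from 350452 to 520073 normalized counts, and adipocyte markers in all 9 WAT libraries, with Adipoq from 4216 to 21290. The WAT library of mouse 593 (Fnip2C/C) stood apart, since its ovary markers summed to 10154 normalized counts, against 158 to 382 in the other 8. Columns of the liver table are ordered by even and then odd RNA number rather than by labelled genotype, whereas those of the WAT table follow the genotype. Groups were taken from the labels, and the liver genotype difference of each gene was also fitted with a term for even or odd RNA number. Fnip2 itself gave 133 to 197 normalized counts in Fnip2C/C livers and 49.2 to 134 in Fnip2T/T livers (log2 difference 0.63 ± 0.23 SE, limma adjusted p = 1.00), and since its count does not read the edited base it is no check of the labels.

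The plot of liver levels shows the 10 genes spanning from Apoe at the top to Mttp at the bottom.

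**Figure D1:**
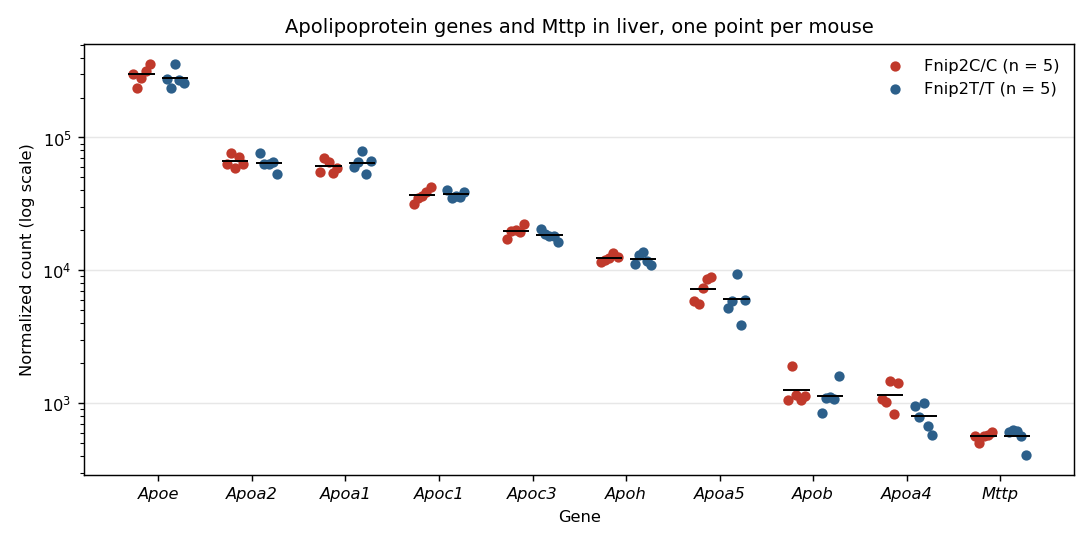
Normalized count (log axis) of each gene in 10 livers, ordered by median; each point is 1 mouse (red, Fnip2C/C; blue, Fnip2T/T) and each bar a group mean. Apoe lies between 234348 and 360216 and Mttp between 406 and 624, and the genotypes overlap for all 10 genes.

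In liver, Apoe alone took a median of 4.14% of all gene reads (3.58 to 5.24% over the 10 livers), and the 10 genes together took 6.74 to 8.52%. QuantSeq primes at the poly(A) tail and reads each transcript once, near its end, so these counts do not grow with transcript length and were not divided by it. By median normalized count the order was Apoe (278570), Apoa2 (63216), Apoa1 (62613), Apoc1 (36552), Apoc3 (19195), Apoh (12239), Apoa5 (5964), Apob (1098), Apoa4 (979.7) and Mttp (570.0, from 406 to 624). The steps from Apoe to Apoa2, from Apoa1 to Apoc1, from Apoc1 to Apoc3, from Apoc3 to Apoh, from Apoh to Apoa5 and from Apoa5 to Apob were clear of any overlap between libraries. The ranges of Apoa2 and Apoa1 overlapped, with Apoa2 the higher in 6 of 10 livers, and so did those of Apob and Apoa4, with Apob the higher in 6 of 10. Apoa4 was above Mttp within each of the 10 livers although their ranges overlapped.

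The genes differed in how far they varied between mice of the same genotype. Apoh, Apoc1 and Apoc3 had the smallest spread, with within-genotype SDs of 0.12, 0.13 and 0.13 on the log2 scale. Those values put Apoh and Apoc1 each at the 3.45th percentile, and Apoc3 at the 9.09th, among liver genes within a factor of 2 of their level (87, 29 and 55 genes). Apoa5, Apob and Apoa4 had the widest spread, with SDs of 0.40, 0.34 and 0.34, at the 85.0th, 87.3rd and 88.0th percentiles of 167, 1000 and 1200 such genes. Apoa5, which raises lipoprotein lipase activity, ran from 3875 normalized counts in mouse 658 to 9416 in mouse 657, both Fnip2T/T, so that the lowest and the highest liver shared a genotype.

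The promoter set used came from RefSeq (GRCm38.p6, an earlier assembly than the GRCm39 named in the submitters' notes). It held start sites for 8 of the 10 genes and had no entry for Apoc1 and Apoc3. Each window ran from 250 bases before to 50 after the start. These windows were searched on both strands for TATAAA, the core of the TATA box, and for TGTTTAC, the core bound by FOXA factors, for GTTAAT, a site of HNF1, and for AGGTCA, a site of many nuclear receptors. TATAAA was found in 3 of the 8 windows against 14.2% of 27025 promoters, TGTTTAC in 2 against 3.55%, AGGTCA in 1, that of Apoh, against 16.0%, and GTTAAT in 0 against 7.20%. Below are 30 bases around the matches in 4 of the genes, those holding TATAAA or TGTTTAC, shown because these motifs were found in more than 1 gene of the set, with the motif in capitals.
Apoa5 (chr9:46268565-46268594, plus strand, motif from position -31): tggcgcctagagTATAAAgtaagagtgtct
Apob (chr12:7977605-7977634, plus strand, motif from position -60): gccagctcctccTATAAAtggagcactttt
Apoa2 (chr1:171224966-171224995, plus strand, motif from position -77): tgtctaaccctTGTTTACtccagcctgatc
Apoh (chr11:108395215-108395244, plus strand, motif from position -71): gctttagcttcTGTTTACagaaatgaaagt
Apoa2 also holds TATAAA, further from its start at position -212. A match of these letters is a description of the window and not a bound site.

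The first comparison asked whether the C allele changed these genes in liver. No gene of the set passed the test: 0 of 10 were called by limma at an adjusted p below 0.05, against 0% of the 11710 liver genes tested (0 genes; 231 genes, 1.97%, had an unadjusted p below 0.05, and edgeR and DESeq2 also called 0). The median difference of the 10 genes, Fnip2C/C minus Fnip2T/T, was 0.07 on the log2(normalized count + 1) scale, beside 0.0072 over all genes tested. On that scale the difference was above 0 for 8 genes and below 0 for Apoa1 and Apoc1. None of the 10 separated the genotypes without overlap, a pattern that 0.248% of liver genes showed.

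Apoa4, which the liver and intestine add to triglyceride-rich particles, had the largest liver difference of the set. It measured 1072, 1016, 1468, 831 and 1409 normalized counts in Fnip2C/C mice 590, 591, 592, 638 and 639, and 954.7, 793, 1004.7, 669 and 579 in Fnip2T/T mice 607, 608, 657, 658 and 659. Mouse 638 lay inside the Fnip2T/T range and the other 4 Fnip2C/C mice above its top. The means were 1159 ± 271 (SD, n = 5) and 800 ± 182 (SD, n = 5), a log2 difference of 0.53 ± 0.18 SE (95% interval 0.16 to 0.90). Taken alone the difference had an exact permutation p = 0.0397 (two-sided, 252 groupings), but over all liver genes its limma adjusted p was 1.00, so it was not called. The mice carry numbers in a lower and a higher range, which the labels do not explain. Among the lower (590 to 609) the difference was 0.43 (3 against 2 mice), among the higher (638 to 659) it was 0.57 (2 against 3), and with the RNA-number term it was 0.55.

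**Figure D2:**
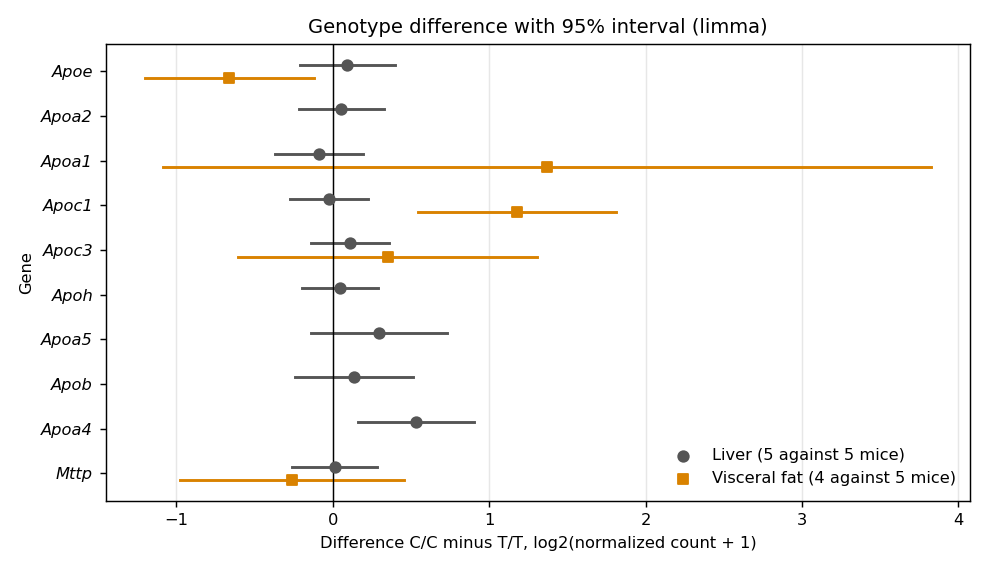
Difference Fnip2C/C minus Fnip2T/T on the log2(normalized count + 1) scale with its 95% interval from limma, for 10 genes in liver (grey circles) and the 5 tested in visceral fat (orange squares). Liver differences run from -0.09 to 0.53, while visceral fat Apoc1 stands at 1.18 and Apoe at -0.66.

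For the other 9 genes the liver intervals all included 0. Apoe, at 298398 ± 46175 (SD, n = 5) and 279604 ± 45609 (SD, n = 5), had an interval of -0.21 to 0.40. The high-density lipoprotein genes gave -0.37 to 0.19 for Apoa1 and -0.22 to 0.32 for Apoa2. Among the exchangeable proteins the intervals were -0.27 to 0.23 for Apoc1, -0.14 to 0.36 for Apoc3, a lipoprotein lipase inhibitor, and -0.14 to 0.73 for Apoa5. Apoh gave -0.20 to 0.29. These bounds say how large a genotype difference the 10 livers could still hold, and the widest, for Apoa5, reached a log2 difference of 0.73.

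For the pair that builds the particle, the genotypes overlapped. Apob measured 1063, 1916, 1145, 1054 and 1137 normalized counts in Fnip2C/C mice 590, 591, 592, 638 and 639, and 850.0, 1085, 1112, 1072 and 1590 in Fnip2T/T mice 607, 608, 657, 658 and 659. Mttp, which transfers lipid onto Apob, measured 568, 499, 568, 571 and 606 in the Fnip2C/C mice and 606, 624, 612, 569 and 406 in the Fnip2T/T mice, in the same order. Mice 591 and 659, 1 of each genotype, had the 2 highest Apob counts and the 2 lowest Mttp counts. The genotype differences were 0.14 ± 0.18 SE for Apob (95% interval -0.24 to 0.51) and 0.01 ± 0.13 SE for Mttp (-0.26 to 0.28). Without mouse 591 the Apob difference turned to -0.024. Among the lower mouse numbers it was 0.47 and among the higher -0.18.

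**Figure D3:**
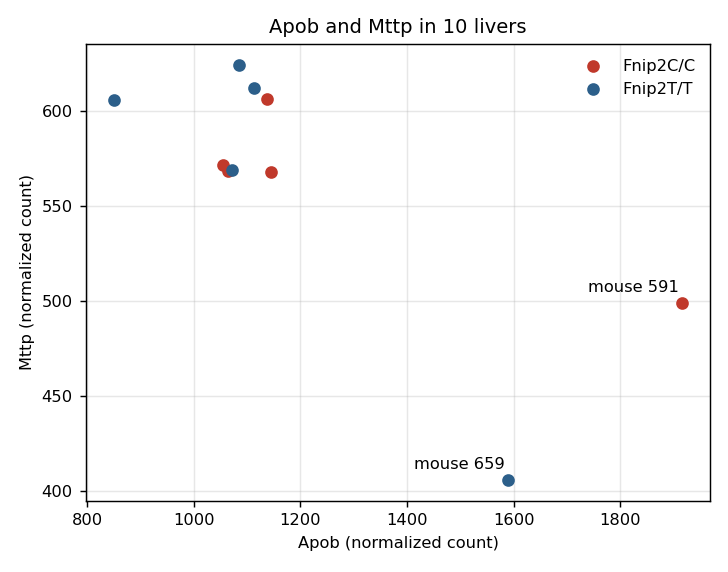
Mttp against Apob, both as normalized counts, in 10 livers (1 point per mouse; red, Fnip2C/C; blue, Fnip2T/T). Mouse 591 (Apob 1916, Mttp 499) and mouse 659 (Apob 1590, Mttp 406) lie apart from the other 8, which hold Apob between 850.0 and 1145.

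Across the 10 livers, 45 pairs of the genes were correlated on the log2 scale. After Benjamini-Hochberg adjustment 0 of 45 passed, and 4 had an unadjusted permutation p below 0.05. For Apob and Mttp Pearson's r was -0.75 (permutation p = 0.0211, adjusted p = 0.273) and Spearman's rho -0.47 (permutation p = 0.179, adjusted p = 0.829), and r was -0.16 without mice 591 and 659, so the relation rested on them. Apoa5 paired with Apoh gave the next values (r = 0.72, permutation p = 0.0214, adjusted p = 0.273; rho = 0.67, permutation p = 0.0386, adjusted p = 0.579), and so did Apoa5 with Apoe (r = 0.71, permutation p = 0.0209, adjusted p = 0.273; rho = 0.68, permutation p = 0.0338, adjusted p = 0.579). These 2 values of r were 0.71 and 0.76 without mice 657 and 658, the farthest from the median of Apoa5. Apoa4 and Apoc3 had r = 0.70 (permutation p = 0.0243, adjusted p = 0.273) and rho = 0.58 (permutation p = 0.0886, adjusted p = 0.797), with r = 0.54 without mice 659 and 592. With genotype means subtracted, 0 of 45 pairs passed, and each range of mouse numbers holds 5 livers, too few for a correlation of its own.

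Among 5485 liver genes with a mean of at least 100 normalized counts, the 3 whose pattern over the 10 livers was most like that of Apob were Rsrc2 (r = 0.93), Gm6542 (r = 0.92) and 1110004F10Rik (r = 0.90). Like Apob they were highest in mice 591 and 659, at 396 and 369 for Rsrc2, and without those mice r was 0.80, 0.63 and 0.45. These are descriptions over 10 points chosen as the highest of many.

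No gene that works with the set was called in liver, where 0 of all 11710 genes tested were called. The counts of 0 below therefore do not set these lists apart. In a list of other apolipoproteins 0 of 5 tested genes passed, with a median difference of -0.027. The 2 with the lowest p were Apoc2, the activator of lipoprotein lipase (37.9 ± 4.5 and 44.5 ± 10.8 normalized counts, SD, n = 5 each), and Apoc4 (10720 ± 766 and 10325 ± 2021). Of 13 genes for particle assembly and export 0 passed (median 0.11), with Tm6sf2, an endoplasmic reticulum protein needed for lipid loading, at a log2 difference of -0.21 ± 0.13 SE and Smlr1 at 0.23 ± 0.17 SE. Of 19 tested receptors, lipases and lipid transfer proteins 0 passed (median -0.042). Lipc, hepatic lipase, stood at 0.23 ± 0.14 SE and Angptl8, a feeding-induced inhibitor of lipoprotein lipase, at -1.15 ± 0.66 SE, with 382 ± 437 and 677 ± 391.9 normalized counts. Of 19 transcription factors that act on apolipoprotein genes 0 passed (median -0.016), the lowest p values belonging to Foxa2 (-0.24 ± 0.17 SE) and Nr1h2 (0.16 ± 0.15 SE).

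In WAT, nearly all reads of the set came from Apoe and Apoc1. The 8 listed genes took 0.122 to 0.283% of gene reads, and Apoe was 91.9% (median; 72.4 to 96.3%) of those. Liver and WAT tables were normalized separately, so the levels were set side by side as reads per 1000000 gene reads (RPM) and not tested. Median Apoe was 41363 RPM in liver and 1909 in WAT, a ratio of 21.7, and Apoc1 was 5475 and 179.7, a ratio of 30.5. For Mttp the ratio was 27.2 (84.7 and 3.11), whereas for Apoc3 it was 964 (2827 and 2.93), for Apoa2 7424 (9623 and 1.296) and for Apoa1 10236 (9239 and 0.903).

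**Figure D4:**
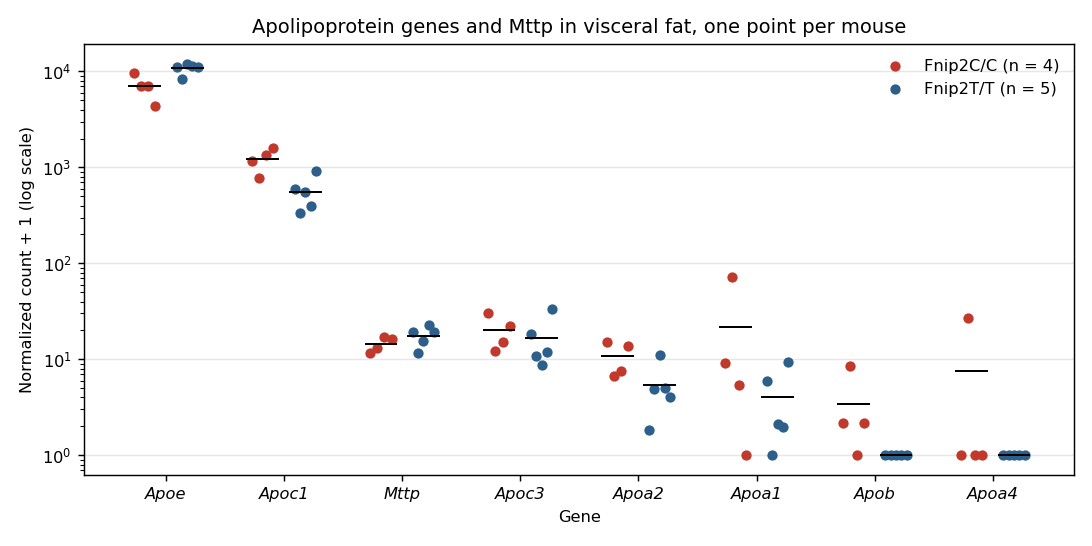
Normalized count + 1 (log axis) of the 8 listed genes in 9 visceral fat libraries; each point is 1 mouse (red, Fnip2C/C; blue, Fnip2T/T) and each bar a group mean. Apoe and Apoc1 are the only genes above 100, and the highest points of Apoa1, Apob and Apoa4 all belong to mouse 593.

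Of the 10 genes, 5 reached a mean of 10 normalized counts in WAT and were tested: Apoe, Apoc1, Mttp, Apoc3 and Apoa1. Apoa1 passed that minimum through mouse 593 alone, with 75 reads there and 0 to 11 in the others, and dropped out when that library was removed. Apoa4 had 28 reads in mouse 593 and 0 in each of the other 8 libraries, where a count of 0 still allows up to 3. Apob had 8 reads in mouse 593, 1 in mouse 590, 1 in mouse 638 and 0 in the other 6. Apoa2 had 1 to 12 reads in every library. Enterocyte markers were near 0 in all WAT libraries (0 to 4.68 summed normalized counts, 4.68 being mouse 593), and Alb was 30.9 in mouse 593 against 29.3 to 257 in the other 8, inside their range. Besides the ovary markers, the summed Kupffer cell markers (43.0 against 7.06 to 26.9) and macrophage markers (6154 against 2846 to 5489) were highest in mouse 593. Within the Kupffer cell list Cd5l and Marco were highest there, but Vsig4 and Timd4 were not. The single markers Lrat (32.8 against 0 to 1.116) and Stab2 (18.7 against 1.18 to 6.70) were also highest there, unlike their lists. The endothelial list, which holds Stab2, had its lowest sum in mouse 593 (1166 against 1510 to 3476). The biliary and stellate list, which holds Lrat, lay inside the range of the others (5510 against 3816 to 8860). The part of these cell types in the Apoa1, Apoa4 and Apob reads was not tested.

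The second comparison asked the same of the C allele in WAT. Of the 5 tested genes 1 was called higher in Fnip2C/C, Apoc1, where 15.1% of the 12798 WAT genes tested were called higher, and 0 were called lower, where 17% were. None of the 5 separated the genotypes without overlap, which 26.1% of WAT genes did. With so many WAT genes called, a call of 1 in 5 does not set these genes apart.

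Apoc1, which slows the clearance of particles by receptors and lipases, measured 1154, 779, 1360 and 1603 normalized counts in Fnip2C/C mice 590, 593, 599 and 638. In Fnip2T/T mice 607, 608, 609, 657 and 658 it measured 594, 330, 547, 394 and 921. Only mouse 658 reached above the lowest Fnip2C/C mouse, which was 593. The means were 1224 ± 349 (SD, n = 4) and 557 ± 230 (SD, n = 5), a log2 difference of 1.18 ± 0.29 SE (95% interval 0.55 to 1.81, limma adjusted p = 0.00955). The exact permutation p for Apoc1 alone was 0.0238 (two-sided, 126 groupings). Without mouse 593 the difference was 1.38 with a limma adjusted p of 0.00595, and it was 1.17 among the lower mouse numbers (3 against 3 mice) and 1.41 among the higher (1 against 2).

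Apoe had the lower mean in Fnip2C/C mice and was not called. It measured 9678, 7053, 7118 and 4336 normalized counts in Fnip2C/C mice 590, 593, 599 and 638 and 11021, 8425, 12080, 11329 and 11141 in Fnip2T/T mice 607, 608, 609, 657 and 658. Mouse 590 lay above mouse 608, and the other 3 Fnip2C/C mice lay below every Fnip2T/T mouse. The log2 difference was -0.66 ± 0.25 SE (95% interval -1.20 to -0.12, limma adjusted p = 0.0582), and the exact permutation p for Apoe alone was 0.0238 (two-sided). Among the lower mouse numbers the difference was -0.40 (3 against 3 mice) and among the higher -1.37 (1 against 2). The adjusted p fell below 0.05 in 5 of 19 alternative analyses, among them the one without mouse 590 (difference -0.83, limma adjusted p = 0.0246) and DESeq2 on the recovered reads (adjusted p = 0.0216).

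Apoc1 and Apoe are next to each other on chromosome 7, and their reads can be compared within a library, where no scaling between libraries enters. This ratio was looked at after the values above were seen. It sets a gene with a higher mean over one with a lower mean in the same libraries, so it is a description of those values. An exact permutation test was run on it, but the pair was chosen from the same values. That test therefore carries no weight and its p is not given. In WAT there were 11.9, 11.04, 19.1 and 37.0 Apoc1 reads per 100 Apoe reads in Fnip2C/C mice 590, 593, 599 and 638, and 5.39, 3.91, 4.53, 3.47 and 8.26 in Fnip2T/T mice 607, 608, 609, 657 and 658. The genotypes did not overlap, a pattern that 26.1% of single WAT genes showed. A pair picked for its opposite means was more likely to show it. The means were 19.8 ± 12.03 (SD, n = 4) and 5.11 ± 1.90 (SD, n = 5), a log2 difference of 1.84, and leaving out each mouse in turn gave 1.48 to 2.06. In liver the same ratio was 10.5 to 14.9 in Fnip2C/C and 10.2 to 15.2 in Fnip2T/T mice, a log2 difference of -0.12.

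**Figure D5:**
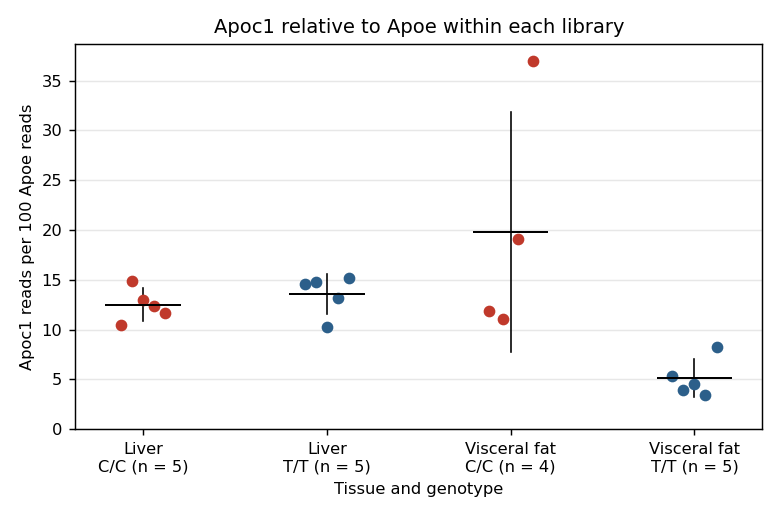
Apoc1 reads per 100 Apoe reads in each library, by tissue and genotype (1 point per mouse, horizontal bar the mean, vertical bar 1 SD each way). In visceral fat the Fnip2C/C mice span 11.04 to 37.0 and the Fnip2T/T mice 3.47 to 8.26, while both genotypes lie between 10.2 and 15.2 in liver.

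Macrophages and adipocytes both make Apoe, and macrophages make Apoc1. Markers of several cell types moved in the same WAT libraries. Against 15.1% of all WAT genes called higher and 17% called lower, of 9 macrophage markers 1 was called higher in Fnip2C/C and 3 lower, and their summed level was 2959 to 6154 normalized counts in Fnip2C/C and 2846 to 4596 in Fnip2T/T mice. The complement subunits, which macrophages make together, did not move together: C1qa was 1608 ± 510 (SD, n = 4) and 770 ± 249 (SD, n = 5), whereas C1qc was 50.8 ± 10.3 and 167 ± 30.2. The remaining subunit, C1qb, was 703 ± 274 and 562 ± 144 and was not called. Of 8 adipocyte markers 6 were called lower, with Adipoq at 9174 ± 4767 and 18964 ± 3083, and the list summed to 72024 (mouse 593) to 229071 in Fnip2C/C and 108836 to 197619 in Fnip2T/T mice. On average most of that sum was Cfd, which was not called and stood at 127997 ± 53626 and 85213 ± 28027. Endothelial markers (2 of 4 tested called lower) summed to 1166 to 2158 and 2421 to 3476. Of 12 hepatocyte markers 6 were listed in WAT and 2 of 3 tested, Alb and Cyp2e1, were lower, with sums of 2998 to 7150 and 5933 to 12278, and Trf made up most of the sum. In the mesothelial (6 tested), ovary (5), Kupffer cell (1) and exocrine pancreas (1) lists limma called 0 (2, 2, 0 and 0 had an unadjusted p below 0.05), and 1 of 4 biliary and stellate markers was lower. Their part in the Apoc1 and Apoe values was not tested, and in bulk tissue fewer cells of a type and less RNA per cell cannot be told apart.

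The remaining tested genes gave no call in WAT. Mttp was 13.6 ± 2.64 (SD, n = 4) and 16.7 ± 4.21 (SD, n = 5) normalized counts, a log2 difference of -0.26 (95% interval -0.98 to 0.45). Apoc3 was 18.95 ± 8.10 and 15.7 ± 10.1, a difference of 0.35 (-0.61 to 1.31). For Apoa1, at 70.2 in mouse 593 and 0 to 8.23 in the other 3 Fnip2C/C mice, the interval ran from -1.08 to 3.83.

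The third comparison set the genotype differences of the 2 tissues against each other over the 10404 genes tested in both. Of the 5 shared genes 1 differed, Apoc1, where 29.2% of all genes did. Its difference was 1.18 in WAT and -0.02 in liver, 1.20 ± 0.33 SE apart (limma adjusted p = 0.00913). For Apoe the values were -0.66 and 0.09, -0.76 ± 0.31 SE apart (limma adjusted p = 0.0668). Mttp, Apoc3 and Apoa1 had limma adjusted p values of 0.449, 0.683 and 0.374.

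Partner genes in WAT were called in both directions. Each count below stands against the 15.1% of all WAT genes called higher and the 17% called lower. Of 8 tested genes for particle assembly and export 3 were called, all lower in Fnip2C/C: Sar1b, the GTPase of the vesicles that carry large cargo (135 ± 38.2 and 298 ± 55.7 normalized counts), P4hb, the protein disulfide isomerase that pairs with Mttp (210 ± 38.3 and 389 ± 46.7), and Mia2, a cargo receptor (151 ± 36.3 and 242 ± 39.9). P4hb and Sar1b serve secretion in general, and Apob was at or near 0 in these libraries. The call of Mia2 was lost without mouse 599 (limma adjusted p = 0.0555). The median of the 8 was -0.36.

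Of 16 tested receptors, lipases and lipid transfer proteins 4 were lower and 2 higher in Fnip2C/C, with a median of -0.13. Among those lower, Pltp, a phospholipid transfer protein, was 120 ± 12.2 (SD, n = 4) and 196 ± 42.2 (SD, n = 5) normalized counts, Lpl, lipoprotein lipase, was 13782 ± 6383 and 27148 ± 7900, and Angptl4, its inhibitor, was 450.1 ± 231 and 1003.6 ± 353. Abca1, which loads lipid onto Apoa1, was higher (513 ± 181 and 324 ± 44.8). Abca1 was called in 8 of 19 alternative analyses, Lpl in 12 and Angptl4 in 14. The call of Abca1 was also lost with no minimum mean, quantile normalization, scaling to the same total and library weights (limma adjusted p from 0.0551 to 0.0903), and that of Lpl with library weights (limma adjusted p = 0.0869). Single mice decided the calls of 3 of these genes, which were lost without mouse 593, 638, 607, 608, 609 or 657 for Lpl, without these or mouse 658 for Abca1, and without mouse 593, 638, 609, 657 or 658 for Angptl4, at limma adjusted p values of up to 0.0823, 0.111 and 0.0833.

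Of 13 tested transcription factors 2 were higher and 1 lower in Fnip2C/C (median -0.31). Rora, a nuclear receptor, was 867 ± 165 (SD, n = 4) and 416 ± 50.8 (SD, n = 5) normalized counts, and Nr1h2, the widely expressed oxysterol receptor that drives Apoe and Abca1 in macrophages and fat, was 24.7 ± 11.7 and 80.7 ± 27.2. Srebf2, a regulator of cholesterol synthesis, was 171 ± 72.8 and 90.1 ± 16.7, a call held in 12 of 19 alternative analyses and lost with scaling to the same total and without mouse 593, 599, 638, 607, 608 or 657 (limma adjusted p up to 0.102). Among other apolipoproteins Apod was the only gene tested, at 230 ± 172 and 155 ± 73.1, and it was not called.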

How the data were processed

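Libraries were made by the submitters with the QuantSeq 3' mRNA-Seq FWD kit, from 250 ng of liver RNA or 500 ng of WAT RNA. Their notes name FastQC 0.11.9, HISAT2, SAMtools 1.12, HTSeq, DESeq2 and GRCm39. The deposited signal values are gene counts that the authors divided by size factors, 1 table per tissue. All values were whole multiples of each library's smallest value (largest deviation 1.8e-09), which gave back whole reads. The labels list 76 samples, 4 per mouse and tissue, and each mouse has 1 column per tissue and counts once. The labels tie 1 WAT column to no mouse, and it was not used. Genes with a mean of at least 10 were tested with limma 3.58.1 (trend, robust) on log2(value + 1). P-values were Benjamini-Hochberg adjusted over all genes of a tissue, with adjusted p below 0.05 called. The fit was tested on simulated counts with the same dispersion for all genes and no outlying library. That check does not cover a library such as WAT of mouse 593. The tissue difference used the 4 group means. Correlations used 100000 permutations. A fold on this scale understates changes of low genes. Alternatives included edgeR 4.0.16 and DESeq2 1.42.0 on recovered reads. The 10 genes and all lists were chosen with earlier results of these data known. Partner genes named were, per list and tissue, up to 6 called genes with the lowest p, or else the 2 with the lowest p, and 2 of these genes are not reported here; cell-type markers were named after their values were seen. P-values cover the spread between these mice.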

Additional observations from a re-analysis of the deposited data

Results flagged for a closer look

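Of 34 sets of 4 or 5 libraries (a gene in a tissue and genotype), 6 held a library far from the rest, by its gap to the next library over the range. The cutoff for that ratio was 0.71 with 5 libraries and 0.829 with 4, and it was not corrected for the 34 sets. In liver these were Apob in Fnip2C/C mouse 591, at 1916 normalized counts against 1054 to 1145 in the other 4, and Mttp in Fnip2T/T mouse 659, at 406 against 569 to 624. In WAT, mouse 593 (Fnip2C/C) held 3: Apoa1 at 70.2 normalized counts against 0 to 8.23, Apoa4 at 26.2 against 0 in each of the other 3, and Apob at 7.49 against 0 to 1.18. Apoe in WAT of Fnip2T/T mouse 608 was 8425 against 11021 to 12080, a ratio of 0.7103 that only just passed the cutoff of 0.71. The genotype difference of Apoc1 differed between the tissues, by 1.20 on the log2 scale (WAT minus liver).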

How the results depend on the processing

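Counts of called genes of the set stayed at 0 in liver under all 21 alternatives. In WAT, Apoc1 was called in all 19 alternatives (log2 difference 1.01 to 1.38, adjusted p 0.00152 to 0.0327), and Apoe joined it, making 2, with quantile normalization, with scaling to the same total, with library weights and with DESeq2; leaving out single mice gave 1 to 2 calls. The tissue difference of Apoc1 was called in all 27 alternatives, and the count was 2, with Apoe, under quantile normalization, the same total and library weights, and 1 to 2 when single libraries were left out (2 without liver of mouse 591 or 657, or WAT of mouse 590 or 608). With mouse as a replicate block over the 6 mice giving both tissues (consensus correlation -0.11) the count stayed at 1 and no call changed. For 12 of 210 liver values the direction turned, none past the threshold. Mttp, 0.01, was -0.014 with quantile normalization, -0.0082 with edgeR, -0.0026 with DESeq2, -0.00029 with a term for mouse number and -0.10 to 0.055 without single mice. Apoc1, -0.02, was 0.00042 with the mouse-number term and -0.072 to 0.032 without single mice, where Apob ran from -0.024 to 0.26, Apoa2 from -0.013 to 0.12 and Apoc4 from -0.0078 to 0.17. The tissue difference of Mttp was 0.26 with quantile normalization. The term for even or odd RNA number and the Apoc1 to Apoe ratio were chosen after seeing the data, and leaving members out of the totals moved no level by more than the spread between libraries. Mttp, Apoc3 and Apoa1 in WAT rest on 0 to 75 reads per library.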
